A study of Drosophila melanogaster with 12 samples.

Results

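The change of gene expression between 48 and 96 h of adult age was followed in pooled reproductive tracts of virgin Drosophila melanogaster males, paired within each of 6 evolved populations. All 12 libraries of the series entered, as 6 pairs of a 48 h and a 96 h library from the same population. The populations all descended from the IV base population and had been kept for 168 generations under 1 of 2 mating regimes. The 3 monogamous populations (Mono 1 to 3) were bred from single pairs of 1 male and 1 virgin female, and the 3 polygamous ones (Poly 1 to 3) from groups of 5 males and 5 females. Each library was a pool of 30 tracts, taken to hold the accessory glands, testes and ejaculatory duct, and 1 pool stood for each population at each age. A pair therefore measures 1 evolving line, and p-values set the mean age change against its spread between the pairs of a regime. That spread also holds differences between single pools, which cannot be told apart from differences between lines.

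Most seminal fluid comes from the paired accessory glands. Their main cells secrete the bulk of the seminal fluid proteins, their rarer secondary cells secrete others, and all of these pass through the endoplasmic reticulum and the Golgi before they are stored in the lumen until mating. Glands of virgin males keep filling over the first days after eclosion, while the testis runs a continuous line from stem cells through spermatocytes to elongating spermatids. In a whole tract, a change in a transcript can come from fewer cells of a type or from less RNA per cell, and these cannot be told apart here.

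Depth ran from 31367030 to 40581251 reads counted in genes. Levels are given in CPM, counts divided by the TMM-scaled depth, on which 3 counts came to 0.0727 to 0.0990 CPM. Some labels name the accessory gland alone and others the whole tract, and testis transcripts were abundant in every library. Summed over 5 main cell markers the level was 5000.0 to 21700.0 CPM at 48 h and 11700.0 to 13900.0 CPM at 96 h, and over 5 testis markers 4840.0 to 6620.0 and 4710.0 to 5320.0 CPM. The 48 h library of Mono 1 stood apart. It held the lowest main cell sum and the highest testis sum, and 182 CPM of 4 fat body markers and 74.2 CPM of 4 haemocyte markers, against at most 79.4 and 42.7 CPM in the other 11. Single markers did not all follow these sums. Most of the fat body sum was apolpp (172 CPM), while Lsp2 and Fbp1 were highest in Poly 3 at 48 h. The testis marker bam was lowest in Mono 1 at 48 h, at 3.1 CPM. List counts are therefore given with all 6 pairs and with 5 pairs, both Mono 1 libraries left out.

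Over 6 pairs, 475 of 13156 genes tested changed between 48 and 96 h when the age change was averaged over both regimes (edgeR quasi-likelihood test with the population as block, Benjamini-Hochberg adjusted p under 0.05). Of these, 228 rose (1.73% of the genes tested) and 247 fell (1.88%). Without Mono 1, 1419 genes rose (10.7% of 13226 tested) and 1455 fell (11.0%), so leaving out 1 population raised the count from 475 to 2874. Leaving out any other population lowered it, to 281 without Mono 2, 269 without Mono 3, 105 without Poly 1, 81 without Poly 2 and 136 without Poly 3. At an unadjusted p under 0.05, 2980 genes passed over 6 pairs.

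**Figure D1:**
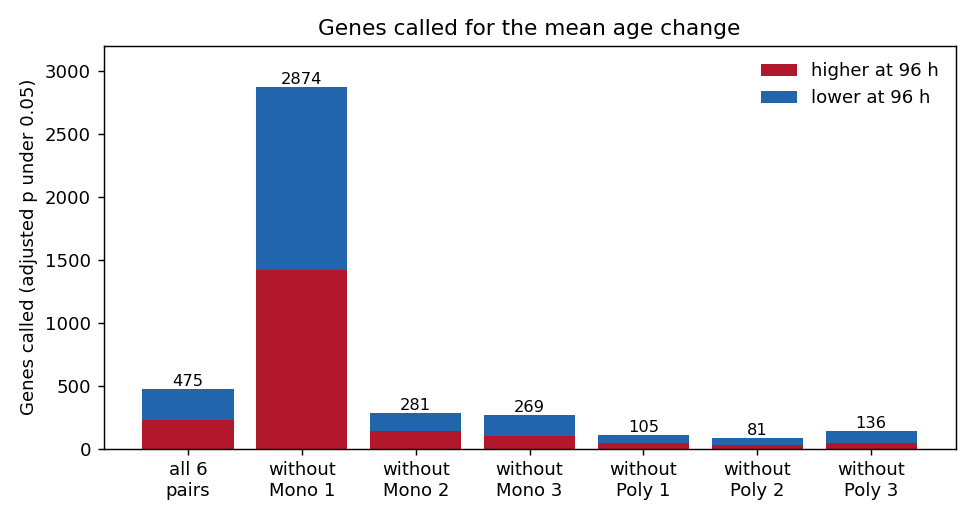
Number of genes called for the mean age change (vertical axis, adjusted p under 0.05, edgeR) with all 6 pairs and with each population left out in turn, split by direction. The count was 475 with all pairs, 2874 without Mono 1, and between 81 and 281 when any other population was left out.

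A gene was taken as shared when its mean change was called in the same direction with 6 pairs and with 5, and its log2 CPM had moved that way in 6 of 6 populations. This held for 432 genes, 215 that rose and 217 that fell, which is 3.28% of the genes tested. For comparison, 10.1% of all genes tested were higher at 96 h in 6 of 6 populations and 8.34% were lower in 6 of 6. Of the genes called with 6 pairs, 6 were not called with 5, among them Sfp70A4, P5CS and CG4716. The falls were larger than the rises, with a median fold of 1.67 against 1.4, and 90 of the falls but 34 of the rises reached 2-fold. Of those, 13 falls and 8 rises had a mean of at least 5 CPM. In 95 of the shared rises and 94 of the shared falls the 6 values at 96 h did not overlap the 6 values at 48 h, as was so in 1.65% of all genes tested for higher values at 96 h and 1.36% for lower.

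Each regime was also tested by its own 3 pairs, with a spread estimated over all 12 libraries. The monogamous pairs called 252 genes (1.92%) and the polygamous pairs 62 (0.471%), and 43 of the shared genes were called in both. Without Mono 1, with the spread taken over 10 libraries, the monogamous pairs called 1029 of 13226 genes and the polygamous pairs 1973. There 244 rises and 399 falls were called in both regimes, so the order of the regimes and their overlap depended on Mono 1. The regimes share no library, but the spread behind the polygamous calls was estimated from the monogamous libraries as well. Genes whose change varied little between the monogamous populations were therefore favoured, and such genes more often have the same sign in all 3. The shares that follow describe these calls and are not an independent check against all genes. Of 19 genes that rose in polygamous males, 18 were higher at 96 h in all 3 monogamous populations, as were 22.1% of all genes tested. Of 43 that fell, 38 were lower in all 3 monogamous populations, as were 19.3% of all genes. Their median log2 change was 0.85 in polygamous and 1.00 in monogamous males for the rises, and -1.40 and -0.90 for the falls. Across all genes tested, which are not independent replicates, the changes of the regimes correlated with Pearson r = 0.277 and had the same sign in 63.2%. Without Mono 1 these values were 0.378 and 68.9%.

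Mono 1 itself served as a population that the fit over 5 pairs had not used. Of the 1419 genes that rose with 5 pairs, 990 (69.8%) were also higher at 96 h in Mono 1, against 50.9% of all genes tested. Of 1454 that fell and were measured in both fits, 753 (51.8%) were lower in Mono 1, against 49% of all genes. The lists below show which groups of genes were on which side.

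**Figure D2:**
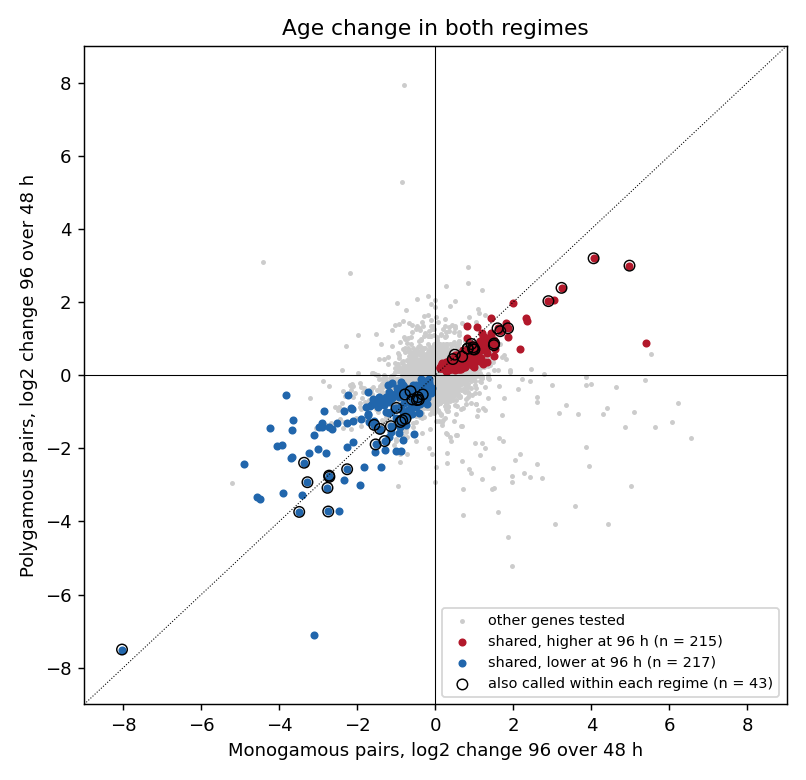
Log2 change of 96 over 48 h in monogamous pairs (horizontal axis) against polygamous pairs (vertical axis) for the 13156 genes tested. Red and blue points are the 215 shared rises and 217 shared falls, circled points are the 43 also called within each regime, and the dotted line marks equal change. The shared genes lie in the lower left and upper right by their definition.

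The 5 largest shared falls among coding genes at 5 CPM or more were those of the odorant-binding proteins Obp99b, Obp99c and Obp56e, the seminal fluid protein Sfp79B and the male-specific gene msopa. Sfp79B (FBgn0259973, chromosome 3L, 22080322 to 22080554 on the BDGP6.54 annotation) stood at 16.4, 34.2, 40.9, 26.3, 56.1 and 40.3 CPM at 48 h in Mono 1 to 3 and Poly 1 to 3, and at 4.36, 4.46, 4.24, 5.09, 5.21 and 7.29 CPM at 96 h. The lowest value at 48 h was in Mono 1, and the ages did not overlap. It fell 6.66-fold (log2 change -2.74 ± 0.22, SE, adjusted p = 0.0031), and 7.65-fold (log2 change -2.93 ± 0.19, SE, adjusted p = 0.0025) with 5 pairs. Its neighbour msopa (FBgn0004414, chromosome 3L, 22082720 to 22083367) stood at 417, 914, 1092, 1060.3, 1221 and 1071 CPM in the same order at 48 h and at 121, 106, 116, 229, 110.3 and 167 CPM at 96 h. It too was lowest in Mono 1 at 48 h, overlapped in no library, and fell 6.72-fold (log2 change -2.75 ± 0.26, SE, adjusted p = 0.00622). The polygamous change of Sfp79B differed from the monogamous by -0.03 (95% interval -1.06 to 1.00) on the log2 scale and that of msopa by -0.07 (95% interval -1.25 to 1.12), so neither interval left out 0.

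CG15021 (FBgn0035544, chromosome 3L, 4436721 to 4438311) went from 12.7, 28.3, 22.1, 32.1, 22.7 and 30.3 to 5.11, 8.59, 9.46, 9.64, 10.02 and 10.8 CPM. It was lower at 96 h in every population, by 1.17 to 1.73 on the log2 scale, and the mean fall was 2.73-fold (log2 change -1.45 ± 0.10, SE, adjusted p = 7.4e-04). CG33784 (FBgn0053784, chromosome 3R, 10067905 to 10068572) differed by population far more than by age. It stood at 0.03299, 5.43, 0.166, 18.3, 2.93 and 20.4 CPM at 48 h and at 0, 1.86, 0.0488, 7.61, 1.17 and 7.34 CPM at 96 h, near 0 in Mono 1 and Mono 3 and highest in Poly 1 and Poly 3. Within populations it nevertheless fell 2.76-fold (log2 change -1.46 ± 0.11, SE, adjusted p = 6.7e-04). Its counts went from 1 to 0 in Mono 1 and from 6 to 2 in Mono 3, so the monogamous change rests on Mono 2 (170 to 73). Its neighbours CG33783 and CG33631, named here after their values were seen, fell 2.75-fold and 7.36-fold (adjusted p = 0.00596 and 0.0031). They too had few counts in Mono 1 (3 to 0 and 6 to 0) and Mono 3 (4 to 1 and 8 to 0). The calls of CG33784, CG33783 and CG33631 were each lost without the population block and without Mono 2.

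Odorant-binding proteins, small carriers of hydrophobic molecules, fell in 6 of 29 cases and rose in 1 over 6 pairs, and the median log2 change of the family was -0.13 against 0.01 over all genes. With 5 pairs 1 rose and 8 fell. Falls made up 20.7% over 6 pairs and 27.6% over 5, against 1.88% and 11.0% of all genes. Obp56e went from 48.8, 124, 169, 144, 186 and 195 CPM to 29.2, 28.97, 28.1, 25.8, 28.2 and 38.04 CPM and fell 4.51-fold (log2 change -2.17 ± 0.24, SE, adjusted p = 0.00969). At 96 h the 6 populations lay close together, and the library at 48 h that lay nearest to them was Mono 1. Without Poly 1 or Poly 2 its call was lost, although its fall with 5 pairs was 5.402-fold (log2 change -2.43 ± 0.10, SE, adjusted p = 3.8e-04). It overlaps asRNA:CR44509 on the other strand. Obp99b and Obp99c, both on chromosome 3R, were highest in Mono 1 at 48 h, at 33.4 and 77.9 CPM, against 5.05 to 15.96 and 7.28 to 15.8 CPM in the other 5. They fell 10.2-fold (log2 change -3.35 ± 0.38, SE, adjusted p = 0.0103) and 5.698-fold (log2 change -2.51 ± 0.41, SE, adjusted p = 0.0331), and 6.99-fold and 3.82-fold with 5 pairs. Obp58b fell 2.93-fold (log2 change -1.55 ± 0.15, SE, adjusted p = 0.0031), with levels of 3.496 to 10.6 CPM over the 6 libraries at 48 h and 1.45 to 2.58 CPM at 96 h. Obp51a, the most abundant of those named, fell 1.26-fold (log2 change -0.34 ± 0.04, SE, adjusted p = 0.00596) from 841 ± 136 to 665 ± 104 CPM (SD, n = 6). Obp8a, which is also listed among seminal fluid proteins, rose 1.52-fold (log2 change 0.60 ± 0.11, SE, adjusted p = 0.0283).

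Sfp36F (FBgn0261057, chromosome 2L, 18292522 to 18292833) stood at 31.4 to 65.2 CPM over the 6 libraries at 48 h and 18.8 to 27.2 CPM at 96 h and fell 2.06-fold (log2 change -1.04 ± 0.06, SE, adjusted p = 4.8e-04). The long non-coding RNA lncRNA:CR43358, which starts 900 bases beyond it, ranged over 50.3 to 187 CPM over the 6 libraries at 48 h and 26.7 to 67.9 CPM at 96 h and fell 2.13-fold (log2 change -1.09 ± 0.07, SE, adjusted p = 4.8e-04). Sfp93F (FBgn0261060, chromosome 3R, 21735909 to 21736296) went from 157 ± 20.6 to 81.7 ± 12.6 CPM (SD, n = 6) and fell 1.93-fold (log2 change -0.95 ± 0.09, SE, adjusted p = 0.0031). CG42869, 217 bases from it, fell 1.44-fold (log2 change -0.53 ± 0.05, SE, adjusted p = 0.0031), and CG34034 fell 1.49-fold (log2 change -0.58 ± 0.05, SE, adjusted p = 0.00214). Acp95EF, an abundant accessory gland peptide gene, ranged over 1963 to 3292 CPM over the 6 libraries at 48 h and 1474 to 2088 CPM at 96 h and fell 1.46-fold (log2 change -0.55 ± 0.05, SE, adjusted p = 0.00354). Rab32, a small GTPase of lysosome-related organelles, fell 1.45-fold (log2 change -0.54 ± 0.04, SE, adjusted p = 0.00213), and Erasp 1.57-fold (log2 change -0.65 ± 0.05, SE, adjusted p = 0.00116).

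The globin gene glob1, which encodes a haemoglobin, went from 81.5, 60.9, 75.3, 68.1, 62.2 and 54.3 CPM to 22.3, 24.4, 28.2, 34.2, 36.1 and 38.9 CPM in Mono 1 to 3 and Poly 1 to 3. The fall was larger in each monogamous than in each polygamous population, and the ages did not overlap. The mean fall was 2.21-fold (log2 change -1.15 ± 0.09, SE, adjusted p = 0.00208), with a log2 change of -1.54 ± 0.13 (SE) in monogamous and -0.75 ± 0.13 in polygamous males. The difference of 0.78 (95% interval 0.36 to 1.21) did not pass adjustment over all genes (adjusted p = 0.717). The calls of Sfp79B, msopa, CG15021, Obp58b, Sfp36F, Sfp93F, CG42869, Acp95EF, Rab32, Erasp, glob1 and lncRNA:CR43358 held in all 12 alternative settings (each population left out, and other scalings, filters, tools and designs), with adjusted p of at most 0.037. Those of CG33784, Obp56e, Obp99b, Obp99c, Obp51a, Obp8a and CG34034 were lost in at least 1, with no change of direction.

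**Figure D3:**
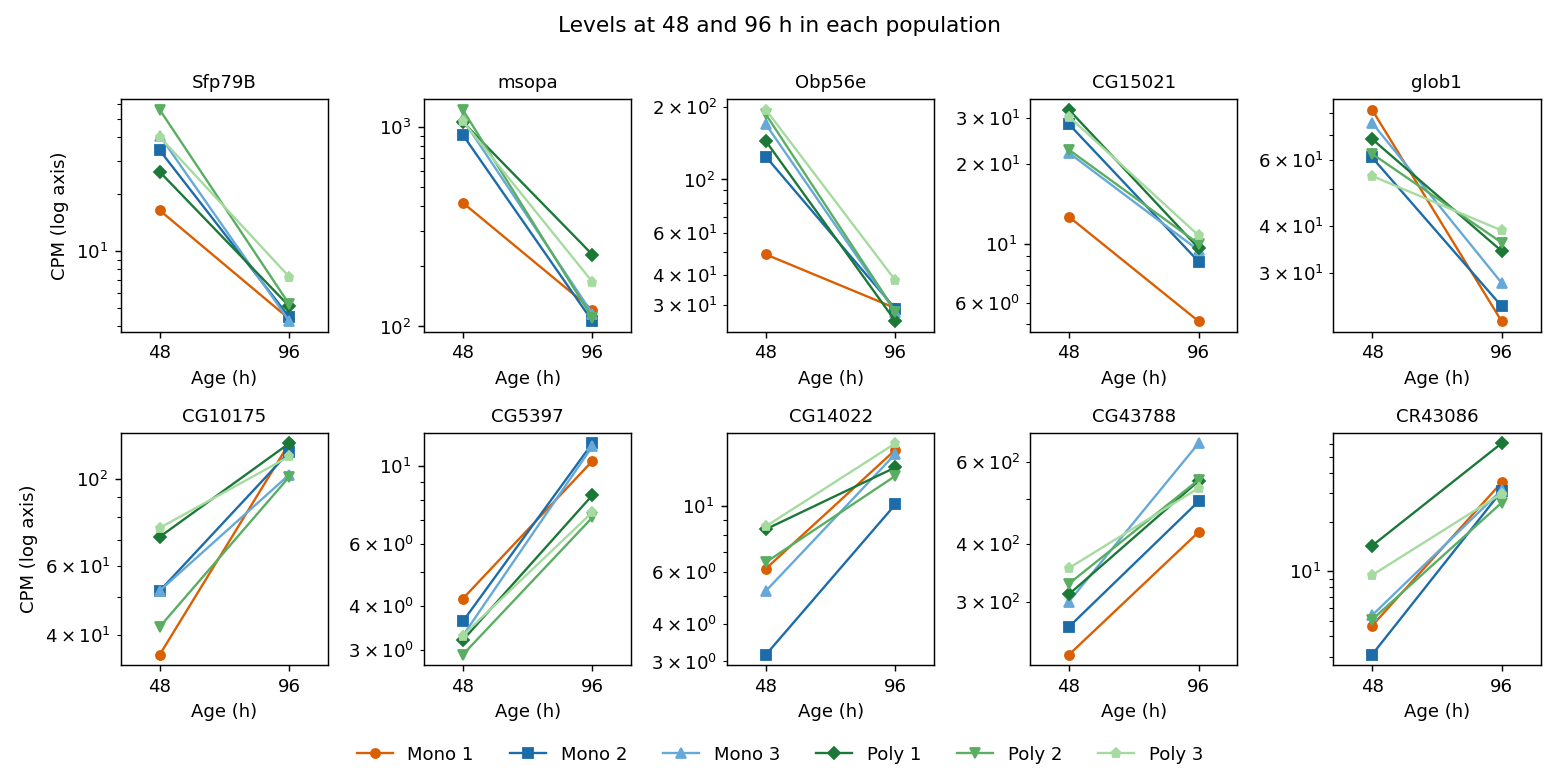
CPM on a log axis at 48 and 96 h (horizontal axis) for 5 genes that fell and 5 that rose, 1 line for each population. All 6 lines slope the same way in each panel. Mono 1 starts lowest for Sfp79B, msopa, Obp56e and CG15021 among the falls and for CG10175 and CG43788 among the rises.

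The median level of the shared rises was 13.3 CPM, against 6.85 CPM for the shared falls and 14.4 CPM for all genes tested. CG5397 (FBgn0031327, chromosome 2L, 1240036 to 1243018) went from 4.19, 3.61, 3.28, 3.19, 2.902 and 3.29 CPM to 10.3, 11.6, 11.4, 8.26, 7.14 and 7.39 CPM and rose 2.71-fold (log2 change 1.44 ± 0.08, SE, adjusted p = 4.8e-04). All 96 h values lay above all 48 h values, and the 3 monogamous populations were the highest at 96 h. CG14022 (FBgn0031700, chromosome 2L, 5327975 to 5328879) stood at 3.16 to 8.57 CPM over the 6 libraries at 48 h and 10.2 to 16.3 CPM at 96 h and rose 2.27-fold (log2 change 1.18 ± 0.07, SE, adjusted p = 4.8e-04). The gene laza (FBgn0037163, chromosome 3L, 22458816 to 22461131), which encodes a lipid phosphate phosphatase, ranged over 2.24 to 4.73 CPM over the 6 libraries at 48 h and 6.34 to 11.6 CPM at 96 h and rose 2.23-fold (log2 change 1.16 ± 0.07, SE, adjusted p = 4.8e-04). CG10175 (FBgn0039084, chromosome 3R, 23522264 to 23530986) stood at 35.7, 51.95, 52, 71.3, 42.1 and 75.2 CPM at 48 h and at 124, 117, 103, 124, 101 and 114 CPM at 96 h, lowest in Mono 1 before and level with the others after. It rose 2.14-fold (log2 change 1.10 ± 0.12, SE, adjusted p = 0.00693). CG43788 (FBgn0264329, chromosome 2R, 16937597 to 16938011) was the most abundant of the leading rises, at 298 ± 44.4 CPM at 48 h and 532 ± 76.8 CPM at 96 h (SD, n = 6), and rose 1.79-fold (log2 change 0.84 ± 0.05, SE, adjusted p = 4.8e-04). CG42521 rose 1.82-fold (log2 change 0.87 ± 0.05, SE, adjusted p = 4.8e-04), CG6055 1.85-fold (log2 change 0.89 ± 0.08, SE, adjusted p = 0.00256) and CG14142 1.66-fold (log2 change 0.74 ± 0.06, SE, adjusted p = 0.00208).

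Among rises of known function, ple, which encodes the tyrosine hydroxylase that opens dopamine synthesis, rose 1.51-fold (log2 change 0.60 ± 0.05, SE, adjusted p = 0.00258), in every population by 0.40 to 0.74 on the log2 scale. Syt7, a synaptotagmin, rose 1.81-fold (log2 change 0.85 ± 0.07, SE, adjusted p = 0.00208), and JhI-26, first described as a gene induced by juvenile hormone, rose 1.72-fold (log2 change 0.78 ± 0.07, SE, adjusted p = 0.0031), with levels of 9.97 to 12.8 CPM over the 6 libraries at 48 h and 14.8 to 22.5 CPM at 96 h. JhI-26 overlaps asRNA:CR43730 on the other strand. His4r, the histone H4 gene outside the replication-dependent cluster, rose 1.38-fold (log2 change 0.46 ± 0.04, SE, adjusted p = 0.0031), and its 6 values at 96 h lay at 91.98 to 111 CPM against 64.8 to 81.4 at 48 h. Cyp9c1, a cytochrome P450 gene, rose 2.34-fold (log2 change 1.23 ± 0.14, SE, adjusted p = 0.00693) and 2.13-fold (log2 change 1.09 ± 0.07, SE, adjusted p = 2.6e-06) with 5 pairs, its lowest value being 2.64 CPM in Mono 1 at 48 h. It overlaps asRNA:CR43787 on the other strand. Cpr66Cb, a cuticular protein gene, rose 1.903-fold (log2 change 0.93 ± 0.09, SE, adjusted p = 0.0031), CG3690 2.29-fold (log2 change 1.20 ± 0.19, SE, adjusted p = 0.022) and CG8008 1.71-fold (log2 change 0.78 ± 0.07, SE, adjusted p = 0.0031). The calls of Syt7, ple, Cyp9c1, Cpr66Cb, CG3690 and CG8008 were lost in at least 1 of the 12 settings, and those of the other 10 coding genes named as rises here held in all.

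Most calls among seminal fluid protein genes were falls, and most of the list fell over 5 pairs. Over 6 pairs, 10 of 81 fell (12.3%, against 1.88% of all genes) and 3 rose (3.70%, against 1.73%), with a median log2 change of -0.09 against 0.01 over all genes. With 5 pairs, 51 fell (63.0%, against 11.0%) and 9 rose (11.1%, against 10.7%), with a median of -0.27 against 0.01. In the separate populations the median was 0.93, -0.16, -0.14, -0.41, -0.44 and -0.50 for Mono 1 to 3 and Poly 1 to 3, so Mono 1 was the single population above 0. Of the 51 that fell with 5 pairs, 10 were also lower at 96 h in Mono 1. The list took 3.14% of gene counts in Mono 1 at 48 h and 6.21% to 7.86% in the other 5, and 4.8% to 6.11% at 96 h in all 6. Of the list members described above, Sfp79B, Sfp36F, Sfp93F and Acp95EF were lower at 96 h in Mono 1 as well.

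Among single products of the main cells, Acp36DE, Acp26Aa, Acp62F and Acp53Ea were higher at 96 h in Mono 1 and lower in the other 5 populations, which did not hold for sex peptide. Acp36DE, a protein that helps sperm enter storage in the female, stood at 2772, 11035, 13865, 14668, 14191 and 14350.0 CPM at 48 h and 8348, 8409.7, 9419, 9793, 8729.5 and 7988 CPM at 96 h. It was far lower in Mono 1 than elsewhere at 48 h, and the 96 h values lay within a narrower range. Its log2 change was -0.26 ± 0.28 (SE, adjusted p = 0.607) over 6 pairs, and it fell 1.51-fold (log2 change -0.59 ± 0.04, SE, adjusted p = 1.4e-05) with 5. Acp26Aa (ovulin), which raises ovulation, had a log2 change of -0.50 ± 0.22 (adjusted p = 0.239) over 6 pairs and fell 1.69-fold (log2 change -0.76 ± 0.04, SE, adjusted p = 1.1e-05) with 5. Acp62F, a protease inhibitor, and Acp53Ea, both added after their values were seen, fell 1.96-fold and 1.31-fold with 5 pairs (adjusted p = 3.3e-06 and 5.6e-06). Sex peptide (SP), which alters female receptivity and egg laying, had a log2 change of -0.01 ± 0.09 over 6 pairs and -0.05 ± 0.12 over 5 (adjusted p = 0.965 and 0.825). It was higher at 96 h in Mono 1, Mono 3 and Poly 1, and the 95% interval of its mean change over 6 pairs ran from -0.21 to 0.19.

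The summed level of 2 ejaculatory duct markers, Dup99B and Gld, was lower at 96 h in every population. It stood at 1570 to 2590 CPM at 48 h and 886 to 1580 CPM at 96 h, lower in 6 of 6 populations. Gld alone went from 212 to 321 CPM in Mono 1 and was lower at 96 h in the other 5. Dup99B, a relative of sex peptide, was lower at 96 h in 6 of 6 populations, from 2374, 1174, 1487, 1326, 1307 and 1294 CPM to 567, 586, 1132, 1059.5, 725 and 827 CPM, and no value at 96 h reached any at 48 h. Its log2 change of -0.88 ± 0.21 did not pass over 6 pairs (adjusted p = 0.086) or over 5 (-0.65 ± 0.15, adjusted p = 0.0701). Est-6, a carboxylesterase of the duct that is passed to females, fell 1.79-fold (log2 change -0.84 ± 0.13, SE, adjusted p = 0.028), with a change of -0.03 in Mono 1 and -1.17 to -0.68 in the other 5. Jhbp5 rose 1.2-fold (log2 change 0.26 ± 0.04, SE, adjusted p = 0.0183), and EbpIII, of the ejaculatory bulb, rose 1.301-fold (log2 change 0.38 ± 0.06, SE, adjusted p = 0.0231). lectin-46Ca, a secondary cell product, stood at 36.7 CPM in Mono 1 at 48 h and at 260.1 to 424 CPM in the other 5, and at 308 to 410.3 CPM at 96 h. Its mean change was 0.56 ± 0.43 (adjusted p = 0.46), and over 5 pairs 0.10 ± 0.02 (adjusted p = 0.0132), higher at 96 h in Mono 2 and 3 and lower in Poly 1 to 3. The difference between regimes over 5 pairs was -0.35 ± 0.05 (SE, adjusted p = 0.025). Abd-B, the Hox gene of secondary cells, had a log2 change of -0.11 ± 0.09 over 6 pairs (adjusted p = 0.493) and fell 1.15-fold (log2 change -0.20 ± 0.06, SE, adjusted p = 0.0256) over 5. Of the serpins, protease inhibitors of which several enter the seminal fluid, 2 of 28 fell and 1 rose over 6 pairs, and 11 fell (39.3%, against 11.0% of all genes) and 2 rose over 5, and their median over 6 pairs of -0.04 turned to 0.02 with size factors from testis genes. Spn77Bb, the most abundant of those called, went from 4692 ± 1183 CPM to 2446 ± 434 CPM (SD, n = 6) and fell 1.88-fold (log2 change -0.91 ± 0.12, SE, adjusted p = 0.0142). The calls of Est-6, Jhbp5, EbpIII and Spn77Bb were lost in 6, 6, 5 and 4 of the 12 alternative settings.

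The secretory pathway had the same split between Mono 1 and the other populations. Of 32 genes for protein entry and folding in the endoplasmic reticulum, none changed over 6 pairs in this test, while 23 fell and none rose over 5 (edgeR, adjusted p under 0.05). Of 37 genes for vesicle coats and Golgi traffic, 2 fell over 6 pairs and 28 over 5, with none rising in either. The falls over 5 pairs were 71.9% and 75.7% of these lists, against 11.0% of all genes. The list medians were 0.53, -0.13, -0.20, -0.23, -0.19 and -0.25 and 0.27, -0.17, -0.16, -0.22, -0.20 and -0.27 in Mono 1 to 3 and Poly 1 to 3. Of the genes that fell with 5 pairs, 2 of 23 and 5 of 28 were also lower at 96 h in Mono 1. The 2 called over 6 pairs were epsilonCOP, a subunit of the COPI coat, which fell 1.17-fold (log2 change -0.23 ± 0.04, SE, adjusted p = 0.0248), and the Golgi GTPase gene Rab6, which fell 1.25-fold (log2 change -0.32 ± 0.06, SE, adjusted p = 0.0431) and had a change of 0.01 in Mono 1. The calls of epsilonCOP and Rab6 were lost in 7 and 7 of the 12 alternative settings. By smallest p over 5 pairs, a choice made after values were seen, twr, a signal peptidase subunit, fell 1.35-fold (adjusted p = 6.2e-07), the oligosaccharyltransferase subunit Ost48 1.28-fold (adjusted p = 3.1e-06), the COPII gene Sec24CD 1.36-fold (adjusted p = 9.4e-07) and alphaCOP 1.29-fold (adjusted p = 2.1e-06). Muscle genes, which mark the sheath of the gland and testis, also lay above 0 in Mono 1 alone by their median. Over 6 pairs 2 of 28 fell and over 5 pairs 15 fell (53.6%) and 1 rose, and the median, which over 6 pairs was -0.05 and turned to 0.01 with size factors from testis genes, was 0.37 in Mono 1 and -0.24 to -0.12 elsewhere. The part of the low gland content of the Mono 1 library at 48 h in these results was not tested.

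**Figure D4:**
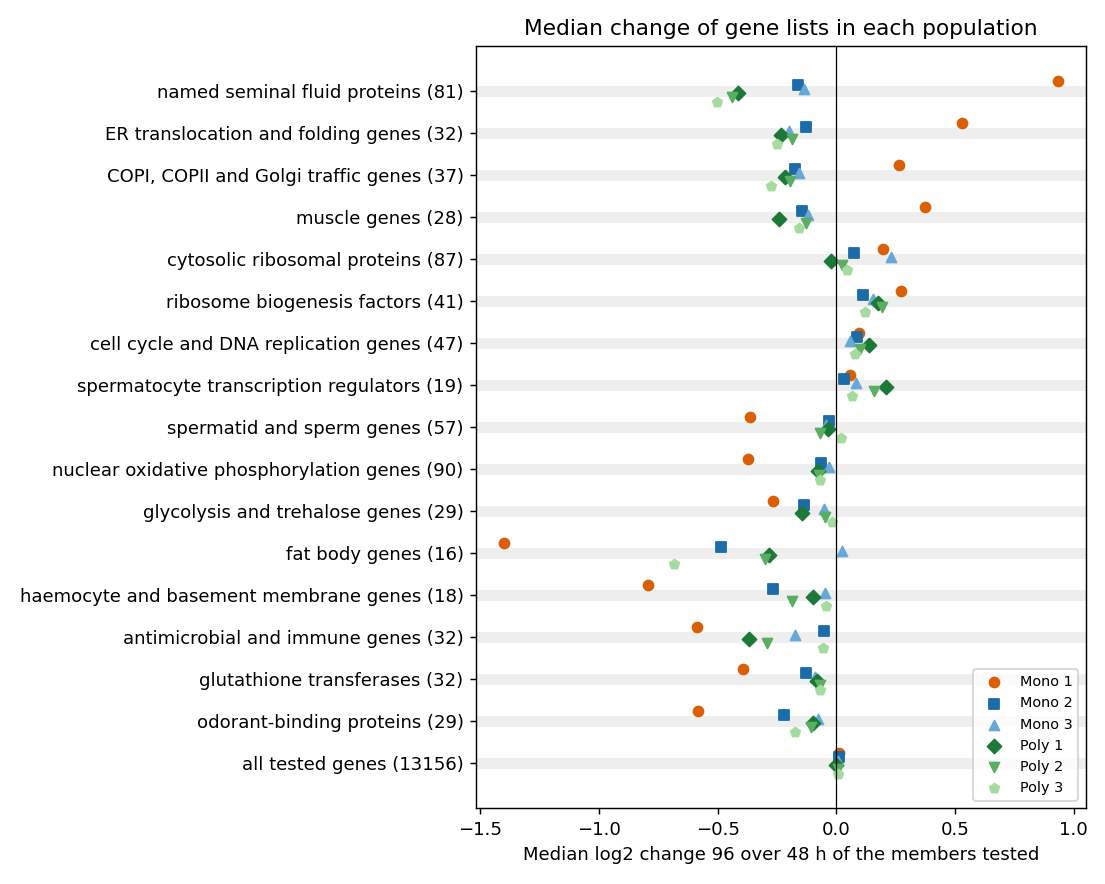
Median log2 change of 96 over 48 h (horizontal axis) of the tested members of 16 gene lists and of all genes tested, 1 symbol for each population, with the number of members in brackets. Seminal fluid, endoplasmic reticulum, Golgi traffic and muscle lists lie above 0 in Mono 1 and below 0 in the other 5 populations, and ribosome biogenesis factors lie above 0 in all 6.

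The median of the ribosome biogenesis list was above 0 in 6 of 6 populations, Mono 1 included. Of 41 ribosome biogenesis factors, 3 rose and none fell over 6 pairs, and 20 rose and none fell over 5 (edgeR, adjusted p under 0.05). The rises were 7.32% and 48.8% of the list, against 1.73% and 10.7% of all genes. Of these 20, 19 were also higher at 96 h in Mono 1. The list median was 0.27, 0.11, 0.15, 0.18, 0.19 and 0.12 in Mono 1 to 3 and Poly 1 to 3, and 0.19 in the mean of both regimes. Non1, a nucleolar GTP-binding protein of the large subunit pathway, went from 75.8, 75.5, 78.9, 89.7, 84.3 and 95.5 to 167, 114, 146, 109.8, 136 and 152 CPM and rose 1.64-fold (log2 change 0.71 ± 0.08, SE, adjusted p = 0.0064). NHP2, of the box H/ACA particles that modify ribosomal RNA, rose 1.23-fold (log2 change 0.30 ± 0.06, SE, adjusted p = 0.034), and ppan, a factor of the large subunit, rose 1.27-fold (log2 change 0.35 ± 0.07, SE, adjusted p = 0.038). The calls of Non1, NHP2 and ppan were lost in 1, 7 and 7 of the 12 alternative settings.

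All calls among cytosolic ribosomal protein genes were rises, of small size. Of 87, 7 rose and none fell over 6 pairs, 34 rose and none fell over 5, and 33 of these 34 were higher in Mono 1. The rises were 8.05% and 39.1% of the list, beside the same shares of all genes. The medians were 0.20, 0.08 and 0.23 in Mono 1 to 3 and -0.02, 0.02 and 0.04 in Poly 1 to 3. RpL5 rose 1.22-fold (log2 change 0.29 ± 0.04, SE, adjusted p = 0.0118), RpL22 1.24-fold (log2 change 0.31 ± 0.05, SE, adjusted p = 0.0159), sta 1.23-fold (log2 change 0.30 ± 0.04, SE, adjusted p = 0.0163) and RpL24-like 1.28-fold (log2 change 0.36 ± 0.05, SE, adjusted p = 0.0118). In RpL5 the log2 change ran from 0.10 to 0.48 over populations. In RpL22 it was 0.49 ± 0.07 (SE) in monogamous and 0.13 ± 0.07 in polygamous males. In RpL24-like these values were 0.40 ± 0.07 and 0.32 ± 0.07. Hsp83, the abundant cytosolic Hsp90 chaperone, rose 1.12-fold (log2 change 0.17 ± 0.03, SE, adjusted p = 0.0343), and eEF1alpha2, an elongation factor, rose 1.28-fold (log2 change 0.36 ± 0.05, SE, adjusted p = 0.0139). The calls of RpL5, RpL22, sta, RpL24-like, Hsp83 and eEF1alpha2 were lost in 3, 5, 5, 3, 8 and 4 of the 12 alternative settings.

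In the germline lists few members passed over 6 pairs, and with 5 pairs the calls in cell cycle and spermatocyte lists were mostly rises. Of 47 cell cycle and DNA replication genes, 2 rose and none fell over 6 pairs, and 11 rose and 1 fell over 5, with 8 of the 11 higher in Mono 1. Rises were 4.26% over 6 pairs and 23.4% over 5, against 1.73% and 10.7% of all genes, and falls over 5 were 2.13% against 11.0%. RnrS, a ribonucleotide reductase subunit, rose 1.304-fold (log2 change 0.38 ± 0.06, SE, adjusted p = 0.0224), and the mitotic kinase gene polo rose 1.13-fold (log2 change 0.18 ± 0.04, SE, adjusted p = 0.0431). Of 19 spermatocyte transcription regulators (testis-specific TAFs and tMAC subunits among them), none was called over 6 pairs and 7 rose over 5 (36.8%), 4 of them also higher in Mono 1. The list median lay between 0.03 and 0.21 in all 6 populations. Of 57 spermatid and sperm genes none was called over 6 pairs, and 6 rose and 8 fell over 5, when 10.7% of all genes rose and 11.0% fell. Their median was -0.36 in Mono 1 and -0.07 to 0.02 elsewhere. betaTub85D, the testis beta-tubulin, had a log2 change of -0.08 ± 0.05 (adjusted p = 0.371), and bam, which starts spermatogonial differentiation, 0.14 ± 0.12 (adjusted p = 0.508). CadN, a cadherin of somatic testis cells, rose 1.25-fold (log2 change 0.32 ± 0.06, SE, adjusted p = 0.0379) but not in every population. The calls of RnrS, polo and CadN were lost in 7, 7 and 8 of the 12 alternative settings.

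Most calls among genes of mitochondrial respiration and sugar breakdown were falls of small size. Of 90 nuclear oxidative phosphorylation genes, 8 fell and 1 rose over 6 pairs, and 32 fell and 3 rose over 5. The falls were 8.89% and 35.6% of the list, against 1.88% and 11.0% of all genes. Of the 32, 31 were also lower in Mono 1, where the list median was -0.37 against -0.08 to -0.03 in the other populations. As a share of gene counts, this list was lower at 96 h in 3 populations and higher in 3, as was the glycolysis and trehalose list. ATPsynC, the c-ring subunit of ATP synthase, fell 1.21-fold (log2 change -0.27 ± 0.04, SE, adjusted p = 0.0127) and moved by -0.35 to -0.18 over populations. COX7C fell 1.36-fold (log2 change -0.45 ± 0.08, SE, adjusted p = 0.0265), COX4 1.16-fold (log2 change -0.22 ± 0.04, SE, adjusted p = 0.027) and the complex I gene ND-MLRQ 1.25-fold (log2 change -0.33 ± 0.06, SE, adjusted p = 0.0336). The single rise was ATPsynbetaL, a paralogue of the ATP synthase beta subunit, which rose 1.18-fold (log2 change 0.24 ± 0.05, SE, adjusted p = 0.0475). Of 29 glycolysis and trehalose genes, 3 fell and none rose over 6 pairs, and 9 fell and none rose over 5 (10.3% and 31.0% falls), 8 of them also lower in Mono 1. The 3 were Glyp, glycogen phosphorylase, at 1.34-fold (log2 change -0.43 ± 0.07, SE, adjusted p = 0.0243), Pglym78, a phosphoglycerate mutase, at 1.25-fold (log2 change -0.32 ± 0.06, SE, adjusted p = 0.0282), and UGP, which makes UDP-glucose, at 1.305-fold (log2 change -0.38 ± 0.07, SE, adjusted p = 0.0321). The calls of ATPsynC, COX7C, COX4, ND-MLRQ and ATPsynbetaL were lost in 3, 5, 7, 4 and 9 of the 12 alternative settings. The calls of Glyp, Pglym78 and UGP were lost in 5, 6 and 7 of the 12 alternative settings.

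**Figure D5:**
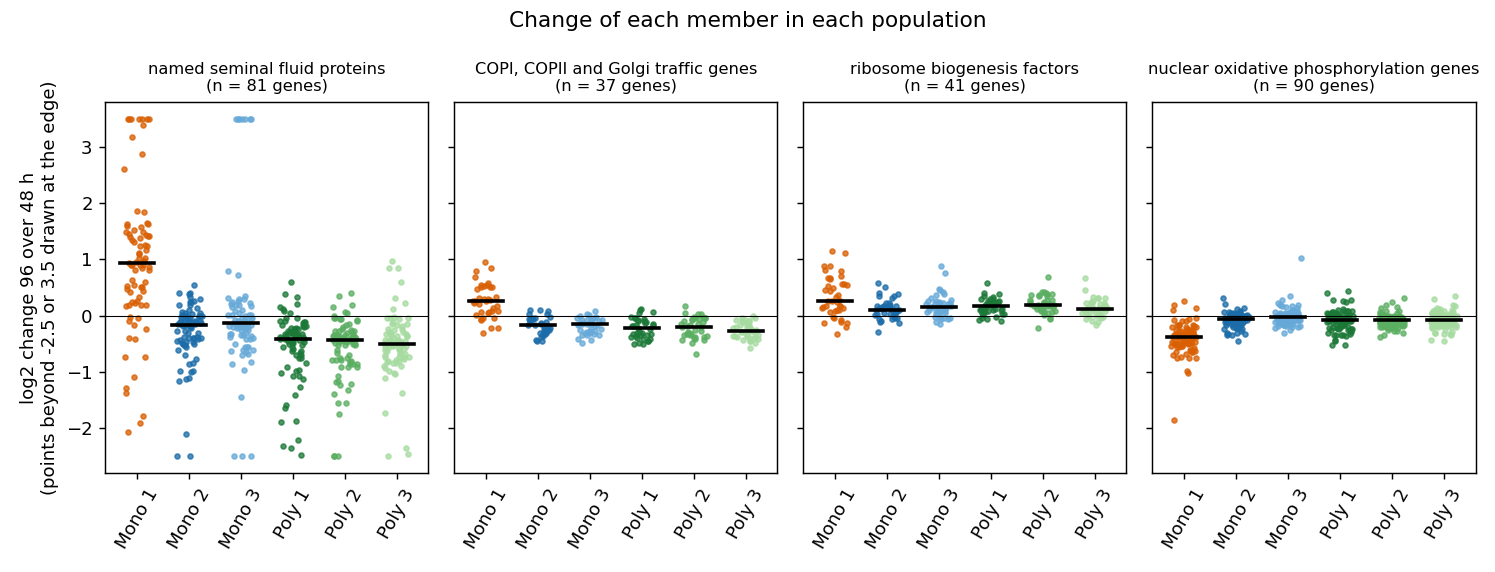
Log2 change of 96 over 48 h (vertical axis) of each member of 4 gene lists in each population, with the median as a black bar and values beyond -2.5 or 3.5 drawn at the edge. By their medians, seminal fluid and Golgi traffic genes are shifted up in Mono 1 and down in the other 5, and ribosome biogenesis factors up in all 6. The median of oxidative phosphorylation genes is below 0 in all 6, at -0.37 in Mono 1 and at -0.08 to -0.03 in the others.

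Over 6 pairs every call among the lists of fat body, haemocyte and immune genes was a fall. These tissues are not among the organs named in the labels, and their markers were at low level. Of 16 fat body genes tested, 5 fell and none rose over 6 pairs, and 8 fell and 1 rose over 5, 8 of the 8 also lower in Mono 1. The 5 include Obp99b, which is also counted among the odorant-binding proteins above. Falls were 31.2% and 50.0% of the list, against 1.88% and 11.0% of all genes. Fbp1, the fat body receptor of larval storage proteins, had 81, 2, 1, 40, 17 and 165 counts at 48 h in Mono 1 to 3 and Poly 1 to 3, and 0, 0, 0, 0, 0 and 1 at 96 h. Summed over populations, 306 counts stood against 1, a ratio of 346 per library size with a 95% interval of 61.6 to 13700 that covers counting error only, and the fall passed the test over all genes (edgeR, adjusted p = 0.0021). Mono 1 and Poly 3 gave most of the counts at 48 h. Lsp1beta, a larval storage protein, fell 6.45-fold (log2 change -2.69 ± 0.31, SE, adjusted p = 0.00661), with levels of 0.552 to 6.597 CPM over the 6 libraries at 48 h and 0.171 to 0.775 CPM at 96 h, and Fbp2 5.51-fold (log2 change -2.46 ± 0.35, SE, adjusted p = 0.0106). The calls of Fbp1, Lsp1beta and Fbp2 were lost in 2, 2 and 3 of the 12 alternative settings. The adult lipoprotein gene apolpp, added after its values were seen, stood at 172 CPM in Mono 1 at 48 h and had no called change (log2 -0.58 ± 0.25, adjusted p = 0.232). The summed level of 4 fat body markers was 51.5 to 182 CPM at 48 h and 41.7 to 62.8 CPM at 96 h, lower at 96 h in 5 of 6 populations, with Yp1 at 0 in 11 of 12 libraries.

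Both genes of collagen IV, which forms the network of basement membranes, fell and were lower at 96 h in 6 of 6 populations. vkg (FBgn0016075, chromosome 2L, 5012144 to 5028191) went from 68.05, 35.8, 46.1, 41.98, 35.1 and 37.9 CPM to 23.4, 12.9, 25.9, 24.3, 20.96 and 26.99 CPM and fell 1.97-fold (log2 change -0.98 ± 0.10, SE, adjusted p = 0.00386). Its neighbour Col4a1 (FBgn0000299, chromosome 2L, 5029609 to 5037279) fell 2.099-fold (log2 change -1.07 ± 0.15, SE, adjusted p = 0.0165), and both were highest in Mono 1 at 48 h. SPARC, a collagen-binding protein, fell 1.51-fold (log2 change -0.59 ± 0.07, SE, adjusted p = 0.00788), and Pxn, peroxidasin, fell 1.31-fold (log2 change -0.39 ± 0.07, SE, adjusted p = 0.0251). In all, 4 of 18 haemocyte and basement membrane genes fell and none rose over 6 pairs, and 6 fell and 1 rose over 5. Falls were 22.2% and 33.3% of the list, against 1.88% and 11.0% of all genes, and the list median went from -0.20 to -0.10. The call of vkg held in all 12 alternative settings. The calls of Col4a1, SPARC and Pxn were lost in 4, 2 and 7 of the 12 alternative settings. The summed level of 4 haemocyte markers was 18.6 to 74.2 CPM at 48 h and 20.6 to 42.7 CPM at 96 h, lower at 96 h in 3 of 6 populations, while both collagen genes were lower in 6 of 6. The part of fat body or haemocytes in these falls was not tested.

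Antimicrobial and immune genes gave 8 falls and no rise among 32 tested over 6 pairs, and 12 falls and no rise over 5, 11 of them also lower in Mono 1 (edgeR, adjusted p under 0.05). Over 5 pairs the falls were 37.5% of the list against 11.0% of all genes, and over 6 pairs the share of all genes that fell was 1.88%. Of the 8, 5 were Bomanins, short secreted peptides induced through Toll signalling. BomBc2, BomS2, BomS3, BomT2 and BomS6 lie next to each other on chromosome arm 2R, BomBc2 overlapping BomS4 on the other strand, and all 5 fell. BomS6 went from 24.9, 2.27, 2.82, 2.15, 1.78 and 2.22 CPM to 0.847, 0.204, 0.317, 0.63, 0.326 and 1.37 CPM. Mono 1 was about 10 times the others at 48 h, and the log2 change ran from -4.79 to -0.68 over the populations. Its mean fall was 7.19-fold (log2 change -2.85 ± 0.28, SE, adjusted p = 0.00378) and 5.04-fold (log2 change -2.33 ± 0.24, SE, adjusted p = 1.0e-04) with 5 pairs. BomBc2 fell 12.7-fold (log2 change -3.67 ± 0.39, SE, adjusted p = 0.00693), BomS2 5.38-fold (log2 change -2.43 ± 0.30, SE, adjusted p = 0.00788), and BomS3 and BomT2, singled out after their values were seen, 7.72-fold and 8.02-fold (adjusted p = 0.01 and 0.0149). Drsl4 fell 4.56-fold (log2 change -2.19 ± 0.31, SE, adjusted p = 0.0081), with levels of 0.0639 to 3.2 CPM over the 6 libraries at 48 h and 0.0255 to 0.4604 CPM at 96 h. The call of BomBc2 held in all 12 settings, and those of BomS6, BomS2, BomS3, BomT2 and Drsl4 were lost in 2, 3, 3, 4 and 3. The log2 difference between regimes for BomS6 was 2.79 (95% interval 1.42 to 4.16), which did not pass adjustment (adjusted p = 0.689).

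Detoxification genes had calls in both directions, with rises over 5 pairs in 9.38% of glutathione transferases, 9.72% of cytochrome P450 genes and 7.41% of UDP-glycosyltransferases, under the 10.7% of all genes. Falls over 5 pairs were 34.4%, 20.8% and 22.2%, against 11.0% of all genes. Of 32 glutathione transferases, 4 fell and 1 rose over 6 pairs, with 11 falls and 3 rises over 5. GstE1 stood at 73.8 to 119 CPM over the 6 libraries at 48 h and 47.8 to 72.8 CPM at 96 h and fell 1.51-fold (log2 change -0.60 ± 0.05, SE, adjusted p = 0.00256), although it overlaps GstE10 on the other strand. GstD5 fell 1.56-fold (log2 change -0.65 ± 0.07, SE, adjusted p = 0.0064), GstD9 1.17-fold (log2 change -0.22 ± 0.05, SE, adjusted p = 0.0459) and the weakly expressed GstD4 2.64-fold (log2 change -1.40 ± 0.27, SE, adjusted p = 0.0371), while GstT4 rose 1.297-fold (log2 change 0.38 ± 0.07, SE, adjusted p = 0.034). The calls of GstE1 and GstD5 held in all 12 settings. The calls of GstD9, GstD4 and GstT4 were lost in 7, 8 and 6 of the 12 alternative settings. Of 72 cytochrome P450 genes, 5 fell and 3 rose over 6 pairs, and 15 fell and 7 rose over 5. Besides Cyp9c1, Cyp4d8 rose 1.32-fold (log2 change 0.41 ± 0.06, SE, adjusted p = 0.016) and Cyp6a17 1.52-fold (log2 change 0.61 ± 0.09, SE, adjusted p = 0.0163), and Cyp28a5 fell 3.19-fold (log2 change -1.67 ± 0.15, SE, adjusted p = 0.00309). Cyp6a17 ranged over populations from 1.24 to 19.05 CPM at 48 h and from 1.83 to 28.05 CPM at 96 h. The calls of Cyp4d8, Cyp6a17 and Cyp28a5 were lost in 6, 5 and 1 of the 12 alternative settings. Among UDP-glycosyltransferases 2 of 27 rose and none fell over 6 pairs, Ugt36D1 by 1.29-fold (log2 change 0.36 ± 0.06, SE, adjusted p = 0.0183) and Ugt302E1 by 2.83-fold (adjusted p = 0.0393), while 2 rose and 6 fell over 5. The calls of Ugt36D1 and Ugt302E1 were lost in 5 and 5 of the 12 alternative settings. The family's median was -0.01 and its mean 0.05, opposite in sign, and the median turned to 0.08 with size factors from testis genes.

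Digestive enzyme genes together took 0.00569% to 0.0227% of the gene counts of a library. Of 17 tested, 4 rose and 1 fell over 6 pairs, and 4 rose and 5 fell over 5. Rises were 23.5% in both fits, against 1.73% and 10.7% of all genes, and falls 5.88% and 29.4%, against 1.88% and 11.0%. The list median went from 0.08 with 6 pairs to -0.45 with 5. The amylase genes Amy-p and Amy-d, near-identical copies whose reads can be split between them, rose 2.76-fold (log2 change 1.46 ± 0.26, SE, adjusted p = 0.032) and 2.22-fold (log2 change 1.15 ± 0.21, SE, adjusted p = 0.029) from at most 2.67 and 1.87 CPM. Jon74E, a serine protease, fell 2.19-fold (log2 change -1.13 ± 0.12, SE, adjusted p = 0.00537). It stood at 26.5 to 131 CPM at 48 h, highest in Mono 2, and at 13.0 to 33.6 CPM at 96 h, so the ages overlapped. Jon65Ai, another serine protease gene, rose 8.82-fold (adjusted p = 0.0404). It had 1, 4, 0, 6, 1 and 2 counts at 48 h and 264, 34, 6, 11, 5 and 4 at 96 h, most of them in Mono 1. The summed level of 2 gut markers ran from 0.718 to 22.8 CPM at 48 h and from 0.317 to 32.1 CPM at 96 h, high in the Mono 1 library at 96 h and the Mono 2 library at 48 h. The part of gut material in these changes was not tested. LManII, an alpha-mannosidase gene on the same list, rose 1.27-fold (log2 change 0.34 ± 0.06, SE, adjusted p = 0.0265). In other metabolic and hormone lists the lipid genes FASN2, Mcad and Npc2b fell 1.72-fold, 1.22-fold and 1.66-fold (adjusted p = 0.0166, 0.0127 and 0.0177), MsrA, an ecdysone-induced methionine sulfoxide reductase, fell 1.55-fold (log2 change -0.63 ± 0.07, SE, adjusted p = 0.00596), and foxo, the insulin-regulated transcription factor, rose 1.25-fold (log2 change 0.32 ± 0.07, SE, adjusted p = 0.045). The calls of Amy-p, Amy-d, Jon74E, Jon65Ai and LManII were lost in 6, 7, 1, 6 and 5 of the 12 alternative settings. The calls of FASN2, Mcad, Npc2b, MsrA and foxo were lost in 5, 5, 5, 2 and 8 of the 12 alternative settings.

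Non-coding genes were shared about as often as coding ones, 3.65% of 1423 tested against 3.21% of 11416. Of 1083 long non-coding RNA genes, 25 rose and 28 fell over 6 pairs, and 73 rose and 72 fell over 5. Over 6 pairs 2.31% rose and 2.59% fell, against 1.73% and 1.88% of all genes, and over 5 pairs 6.74% and 6.65%, below the 10.7% and 11.0% of all genes. The pseudogene CR43086 (FBgn0262532, chromosome 3L, 17868740 to 17870573) stood at 4.65, 3.099, 5.38, 14.3, 5.06 and 9.47 CPM at 48 h and at 34.8, 30.9, 31.2, 60.3, 26.2 and 29.7 CPM at 96 h. Poly 1 was highest at both ages, and the ages did not overlap. It rose 5.502-fold (log2 change 2.46 ± 0.12, SE, adjusted p = 4.8e-04), and its neighbour CR43087, another pseudogene, 1.703-fold (log2 change 0.77 ± 0.15, SE, adjusted p = 0.0422). lncRNA:CR44481 rose 2.97-fold (log2 change 1.57 ± 0.14, SE, adjusted p = 0.00258), with levels of 2.51 to 5.603 CPM over the 6 libraries at 48 h and 8.46 to 15.97 CPM at 96 h, and asRNA:CR45149, antisense to Arms, 1.72-fold (log2 change 0.79 ± 0.09, SE, adjusted p = 0.00693). Among the falls, lncRNA:CR43661 went from 2.84, 7.796, 4.86, 8.62, 10.8 and 6.003 CPM to 0.847, 1.53, 0.805, 1.72, 1.68 and 0.876 CPM, a fall of 5.34-fold (log2 change -2.42 ± 0.12, SE, adjusted p = 4.8e-04) that was called in each regime. lncRNA:CR45945 fell 8.59-fold (log2 change -3.10 ± 0.21, SE, adjusted p = 7.5e-04) and lncRNA:CR45402 12.3-fold (log2 change -3.62 ± 0.31, SE, adjusted p = 0.00208), both from at most 3.202 CPM. lncRNA:CR43491, lncRNA:CR43917 and lncRNA:CR44672 fell 2.09-fold, 1.97-fold and 1.95-fold (adjusted p = 0.0141, 0.00378 and 0.0149). The rises of lncRNA:CR45901, lncRNA:CR43794 and lncRNA:CR45177 were 2.698-fold, 2.45-fold and 1.74-fold (adjusted p = 0.00208, 0.004 and 0.00693). The calls of CR43087, asRNA:CR45149, lncRNA:CR43491, lncRNA:CR44672 and lncRNA:CR45177 were lost in 7, 2, 5, 4 and 1 of the 12 alternative settings.

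The shared genes came from every chromosome arm. The X chromosome held 14.9% of the genes tested, 13% of the shared rises (28 genes) and 8.76% of the shared falls (19 genes), and chromosome arm 3L held 19.4%, 25.6% and 21.7%. No Y-linked gene was among them, but only 25 were tested (0.19% of the genes tested). With 3.28% of all genes shared, that number is too small to read the absence as a trait of the Y chromosome. In 31 cases 2 genes next to each other among the genes tested were both shared in the same direction. Of these cases 12 were rises and 19 were falls. The share of such pairs among all neighbouring genes was not computed, so 31 cannot be read as many or few. Some of the cases are genes that overlap in position, such as ome and CG4914, where reads may be mixed, and the Bomanins enter more than once. Besides the Bomanins, Sfp79B with msopa, Sfp36F with lncRNA:CR43358, Sfp93F with CG42869, CG33631 with CG33783 and CG33784, and vkg with Col4a1, these included GstD4 with GstD5 among the falls and CR43086 with CR43087 among the rises.

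The age change was then compared between regimes. Over 6 pairs 1 gene differed (0.00760% of those tested, edgeR, adjusted p under 0.05), and 708 had an unadjusted p under 0.05. It was Sfp24Ba, with a polygamous minus monogamous difference of -8.29 (95% interval -9.93 to -6.66) on the log2 scale (adjusted p = 0.023). Its counts were 6, 0, 4, 12, 3 and 2 at 48 h and 621, 0, 558, 5, 0 and 1 at 96 h in Mono 1 to 3 and Poly 1 to 3. The difference rests on the 96 h libraries of Mono 1 and Mono 3, and Mono 2 had no count at either age. Its mean change over regimes was also called (5.33-fold higher, adjusted p = 0.0281), with a rise in 2 of 6 populations, so it was not among the shared genes. The call of Sfp24Ba was lost in 6 of the 12 alternative settings. The same 2 libraries held 12 genes, Sfp24Ba among them, at 10 times or more their level in any of the other 10 libraries, while no other pair of 96 h libraries held any such gene. They included Ebp and EbpII, which encode ejaculatory bulb proteins, at 506 and 141 CPM in Mono 1 and 487 and 136 CPM in Mono 3 against at most 8.53 and 5.8 CPM elsewhere, and 7 of the 12 belonged to the seminal fluid protein list. These genes were found after values were seen, and the part of ejaculatory bulb tissue in the call of Sfp24Ba was not tested.

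Without Mono 1, 87 genes differed between regimes (0.658%), 80 of them with a lower change in polygamous males. Of these 80, 23 were among the 81 named seminal fluid proteins tested. In 30 of the 80 both regimes had a negative change, larger in the polygamous populations, and in 50 the fitted monogamous change over Mono 2 and 3 was positive. Started from these 5 pairs, the count of 87 became 28 without Mono 2, 20 without Mono 3, 86 without Poly 1, 135 without Poly 2, 5 without Poly 3 and 0 without the block. DESeq2 gave 88, RLE factors 86, no filter 66 and testis size factors 60. The smallest p belonged to CG6770, named here after its values were seen, with a log2 change of 0.76 in Mono 2 and 3 and 0.23 in polygamous males (difference -0.53 ± 0.05, SE, adjusted p = 0.00119). CG6770 rose in the mean of all 6 pairs as well, 1.33-fold (log2 change 0.41 ± 0.07, SE, adjusted p = 0.0214), and was higher at 96 h in 6 of 6 populations, and that call was lost in 6 of the 12 settings. Among the 432 shared genes, 90 had an unadjusted p under 0.05 for the difference over 6 pairs, and none passed adjustment there. Over 5 pairs some shared genes did pass (edgeR). Besides CG6770 these included CG14022 (difference -0.73 ± 0.13, SE, adjusted p = 0.0366) and RpL22 (-0.40 ± 0.07, SE, adjusted p = 0.0351). The shared rises were larger by estimate in monogamous males in 180 of 215 cases and the shared falls in 120 of 217. How often this held over all genes tested was not counted, and the monogamous estimate in these counts includes Mono 1. The median rise was 0.64 in monogamous males, 0.55 in Mono 2 and 3, and 0.35 in polygamous males on the log2 scale.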

How the data were processed

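The authors deposited raw counts of reads per gene, 1 table for each of the 12 libraries. Per the submitters' processing notes Trimmomatic 0.33, TopHat2 2.1.0 and HTSeq 0.6.1 were used with build BDGP6, and per the labels' protocols libraries were stranded total RNA. The strand setting of the counting and the annotation release are not given in the sources used here. Reads of overlapping and antisense genes may therefore be mixed. Not every overlap is marked where a gene is named. Acp95EF, RpL24-like and Mcad, for example, overlap genes on the other strand, and Fbp2 and RpL22 overlap genes on the same strand. The 5 summary lines of each table (15.1% to 17.2% of its total) were left out.

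Counts were filtered with filterByExpr, scaled with TMM and fitted with edgeR 4.0.16 (R 4.3.3, robust quasi-likelihood), with the population as block and 1 age coefficient for each regime. The mean of both was the main contrast, and p-values were adjusted with the Benjamini-Hochberg method over all genes tested. The fit was tested on simulated data with 1 fixed spread for all genes and the same age change in every population. Such data do not cover a population whose age change stands apart, as that of Mono 1 did. Libraries of a population share its source, and their deviations correlated with r from 0.390 to 0.570 in all 6 pairs, so the block was kept. CPM are TMM-scaled, and changes by population are differences of log2 CPM with a prior count of 2. Population and age have 1 pool each, so pools were not replicated within a population.

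Named genes were, among shared genes of at least 5 CPM, the 8 coding genes with the largest change, the 8 with the smallest p and 4 non-coding genes in each direction, up to 4 called members of each of 41 lists in each direction, and a panel of tract genes. Others are marked as chosen after values were seen. The members and lists were chosen with earlier results of these data known. Gene symbols and positions come from the BDGP6.54 annotation. Alternatives were no block, RLE and testis-gene size factors, no filter, DESeq2 1.42.0, 1 common age coefficient, and each population left out.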

Additional observations from a re-analysis of the deposited data

Results flagged for a closer look

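In each gene and list the highest or lowest of the 6 population changes was set against the other 5, and its gap was compared with the 95% limit of Dixon's test for 6 values. Of 144 named genes 20 passed the limit, and of 41 list medians 18, and in all of these the population apart was Mono 1. Chance alone gives about 1 in 20, and some of the named genes were chosen after values were seen, from lists that had this split. Genes whose Mono 1 log2 change was above 0.05 had 6.28 for Jon65Ai, 0.24 for Acp62F, 0.33 for Strn-Mlck, 0.29 for TpnC47D, 0.28 for Sec24CD, 0.47 for twr, 1.03 for Acp26Aa, 0.50 for Ost48, 0.54 for Grasp65, 0.52 for alphaCOP, 0.59 for Ostgamma, 0.90 for Acp53Ea, 3.38 for lectin-46Ca, 1.59 for Acp36DE and 0.91 for Mhc. The others had -3.96 for Drsl4, -0.74 for Obp56e, -0.17 for Spn77Bb, 0.012 for Rab6 and -0.37 for betaTub85D.

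The list medians of Mono 1 that stood above the other populations were 0.93 for named seminal fluid proteins, 1.98 for secondary cell genes, 0.53 for ER translocation and folding genes, 0.27 for COPI, COPII and Golgi traffic genes, 0.16 for unfolded protein response genes, 0.17 for translation initiation and elongation factors, 0.37 for muscle genes, 0.30 for insulin and TOR genes, 0.53 for UDP-glycosyltransferases and 0.37 for tRNA ligases. Those that stood below them were -0.36 for spermatid and sperm genes, -0.79 for haemocyte and basement membrane genes, -0.12 for heat shock and co-chaperone genes, -0.37 for nuclear oxidative phosphorylation genes, -0.17 for proteasome subunits, -0.58 for odorant-binding proteins, -0.39 for glutathione transferases and -0.27 for long non-coding RNA genes. The 48 h library of Mono 1 held the lowest summed main cell level and the highest summed testis, fat body and haemocyte marker levels. Single testis and fat body markers did not all follow their sums. The part of this library in these values was not tested.

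The age change of Sfp24Ba differed between regimes by a test of the difference itself, at -8.29 on the log2 scale (polygamous minus monogamous, adjusted p = 0.023, edgeR), with counts above 100 in the 96 h libraries of Mono 1 and Mono 3 and nowhere else. The change of lectin-46Ca was positive in every monogamous and negative in every polygamous population, a difference of -1.28, which did not pass the test (adjusted p = 0.717) over 6 pairs. Without Mono 1 the difference was -0.35 ± 0.05 (SE, adjusted p = 0.025) and passed.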

How the results depend on the processing

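Counts of called genes depended on the population block and on single populations. Without the block, the 6 pairs gave 194 called genes (109 up, 85 down) in place of 475, 72 for monogamous and 13 for polygamous pairs, 0 for the difference, 180 shared genes, and 805 in place of 2874 without Mono 1. Size factors from testis genes, which moved the median of all genes to 0.076, gave 267 (136 up, 131 down), 120, 21 and 238 shared. DESeq2 gave 380 for monogamous, 165 for polygamous and 1553 for 5 pairs. RLE factors, no filter, DESeq2 and 1 common coefficient left the 6-pair count within 410 to 540. Leaving out 1 population gave 81 to 2874 genes (31 to 1419 up, 50 to 1455 down), 77 to 1029 for monogamous and 0 to 1973 for polygamous pairs, 0 to 87 for the difference, 74 to 2426 shared, and 1330 to 2561 when started from 5 pairs. Mono 1 gave every upper value but the last. The cause was not tested. Requiring a call within each regime left 43 shared genes. Among named genes called over 6 pairs none changed sign in any of the 12 alternatives. Among those not called, the log2 change of SP (-0.01) turned to 0.0543 with testis size factors and ran from -0.0892 to 0.0619 over the populations left out, above 0 without Mono 2 or Poly 2, and the log2 change of Mhc (-0.06) ran from -0.264 to 0.0606, above 0 without Mono 2 or Mono 3. Of 120 named genes called, 34 kept the call in all 12 alternatives, 29 lost it in 1 to 3, 35 in 4 to 6 and 22 in 7 or more. Genes with few counts, such as Fbp1 and Jon65Ai, are limited by depth, since 3 counts were worth 0.0727 to 0.0990 CPM.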

Other observations

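The 96 h libraries of Mono 1 and Mono 3 shared a set of 12 genes that were at least 10 times as high there as in any other library, found after values were seen. Ebp stood at 506 and 487 CPM against at most 8.53 CPM in the other 10 libraries, Sfp87B at 155 and 166 against 5.68, EbpII at 141 and 136 against 5.80, Sfp60F at 95.9 and 103 against 5.77, and Obp56g at 53.2 and 72.9 against 3.19. Sfp24Bb, Sfp24Ba, Acp24A4, CG30427, CG18301, CG15649 and Sfp24Bd were the others, at 1.18 to 38.0 CPM in these 2 libraries. EbpIII, a further ejaculatory bulb gene, was at 55.6 and 59.1 CPM there and at 43.0 to 45.2 CPM in the other 96 h libraries. None of the 14 other pairs of 96 h libraries had such a gene.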
